A study of Mus musculus with 27 samples.

Results

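The reads that the N3 enhancer of the *Nkx3-2* locus captured across the mouse genome were compared between limb buds and liver. *Nkx3-2* encodes a homeodomain repressor of cartilage maturation, and N3 is one of the distal limb enhancers at its locus. The members were the 9 N3 libraries among the 27 4C-Seq libraries of the series, chosen by viewpoint from their titles. They comprised 3 libraries each of forelimb and hindlimb, pooled as 6 limb libraries, and 3 of liver. In each, every *BglII* fragment of the genome outside 20 kb of the viewpoint position at chr5:41535802-41535802 (mm10) was counted. The study used liver as the control tissue for limb contacts, and the comparison asks whether the reads of N3 were spread differently over the genome in the 2 tissues.

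Each library came from pooled tissue of 5 to 6 mouse embryos at E14.5. The strain is C57BL/6Ncrl in the sample labels and C57BL/6NJ in the protocol, for all groups alike, and no treatment is named. The buds and livers were taken whole, so each library averages over all their cells. The template was amplified with a pool of 6 viewpoint primers in 1 reaction. The liver libraries are called N3 in their titles but enhancer 1 in their descriptions, and the hindlimb replicate 3 library is called replicate 1 in another label. The titles were followed. More than 10% of the reads of every liver library lay on the fragment that holds the N3 primer, as described below. The files hold no expression values, so the tissues could not be checked against marker genes.

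In 4C-Seq, chromatin is crosslinked, cut with a restriction enzyme and religated, and the pieces joined to 1 chosen position, the viewpoint, are amplified with a primer that points out of it. Sequences that lie close to the viewpoint in the nucleus are ligated to it more often. Captures are therefore densest beside the viewpoint and thin out along the same chromosome. Fragments of other chromosomes give the background of random ligation. Because the primer ends at the cut site, a genomic sequence that resembles its 3′ end can also be amplified without any ligation to the viewpoint.

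The viewpoint was read with a nested primer of 24 bases, whose last bases are part of the *BglII* site. The primer is shown first, followed by the stretches that come closest to it within 5 distant fragments. These ranked among the 3 highest by mean share of reads in limb or liver, on chromosome 5 or on the other chromosomes. Not every fragment of that rank is printed. Stretches run 5′ to 3′ on the strand named, in mm10, and capitals mark the unbroken run of bases from the 3′ end that equal the primer. In the primer itself, capitals mark its part of the *BglII* site.
N3 nested primer, chr5:41535790-41535813, plus strand: gttgtaagtagcagacacagAGAT
*Hunk* fragment, chr16:90493820-90493843, plus strand: tgtaaaaggAGCAGACACAGAGAT
*Ap3b1* fragment, chr13:94404706-94404729, minus strand: actgatgggAGCAGACACAGAGAT
*Oas1c* neighbour fragment, chr5:120824377-120824400, minus strand: atacacaaatGCAGACACAGAGAT
*Slc39a11* fragment, chr11:113506536-113506559, plus strand: gcacatagtcgcagacacacAGAT
*Drd2* fragment, chr9:49392354-49392377, plus strand: ccgtgagagagcagacacacAGAT

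The *Hunk* and *Ap3b1* stretches equal the last 15 bases of the primer, and the *Oas1c* neighbour the last 14. The stretches of the other 2 fragments were chosen for the most matching bases, 17 and 15 of 24, and match over 4 bases before the first difference. The longest unbroken run elsewhere in these 2 fragments is 6 and 7 bases. Among the highest fragments not printed, the one with exons of *Gtf2ird2* and *Ncf1* has a longest run of 8 bases. The one near *Cib4* has a longest run of 9 bases.

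Total counts were 924023 to 1772337 reads in the limb libraries and 1971831 to 2376866 in liver, so liver was sequenced more deeply. The genome was divided into 949826 fragments, and 10 of them lay within 20 kb of the viewpoint. Liver replicate 3 stood apart from the other libraries, with reads on 35969 distant fragments against 26105 and 15538 in liver replicates 1 and 2 and 14625 to 19442 in limb. It also had the highest chromosome 5 share of fragments with reads among the 9 libraries of the N1 viewpoint (27.9%, limb 10.04 to 14.8%) and of the N2 viewpoint (19.1%, limb 7.46 to 9.92%). Values without this library are given beside the results that it moved most. Nothing in the labels ties each replicate to a separate preparation beyond its pool of embryos, so p-values measure the spread between these libraries.

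The share of reads beside the viewpoint was not shown to differ between liver and limb. Within 20 kb lay 10.8, 10.4 and 18.8% of all reads in forelimb, 14.2, 23.4 and 18.3% in hindlimb, and 20.6, 22.5 and 22.2% in liver. The liver values lay close together, while 1 limb library, hindlimb replicate 2, was above all of them. The means were 15.97% ± 5.09 (SD, n = 6) in limb and 21.7% ± 1.01 (SD, n = 3) in liver. The exact permutation test over the 84 ways to choose 3 of the 9 libraries gave p = 0.0952 (two-sided; 0.167 after Benjamini-Hochberg adjustment over the 7 library-wide measures compared). Without hindlimb replicate 2 the difference was 7.26 percentage points with an exact p of 0.0357. Leaving out any other 1 library gave an exact p of 0.107 to 0.214. The fragment that holds the primer, chr5:41530052-41535810, took 5.16 to 11.7% of all reads in limb and 10.3 to 11.2% in liver. Its downstream neighbour took 2.26 to 11.6% in limb and 6.55 to 10.5% in liver. Fragments this close usually include uncut and self-ligated product, and they were left out of all values that follow, which are called distant.

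Chromosome 5, which carries the viewpoint, held a share of distant reads that was not shown to differ between the tissues. It was 6.34, 7.04 and 5.86% in forelimb, 7.65, 7.07 and 5.47% in hindlimb, and 6.63, 6.18 and 8.14% in liver, so the groups overlapped (6.57% ± 0.823, n = 6, against 6.99% ± 1.02, SD, n = 3; exact permutation test, p = 0.560, adjusted p = 0.653). Without liver replicate 3 the liver mean was 0.163 percentage points below that of limb. Without the fragments that had reads in all 9 libraries the liver mean was 1.51 percentage points above it (exact p = 0.190). Chromosome 5 holds 5.46% of the distant fragments of the genome.

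When each fragment was counted once, however many reads it had, the groups did not overlap. The chromosome 5 share of fragments with reads was 7.27, 6.64 and 7.31% in forelimb, 7.03, 6.61 and 7.25% in hindlimb, and 7.41, 7.41 and 10.21% in liver. Every liver library lay above every limb library, but liver replicates 1 and 2 did so only narrowly, at 7.41% against a highest limb value of 7.31%. The difference of the means was 1.32 percentage points, with p = 0.0119 in the exact permutation test, the smallest value that 84 arrangements allow, and 0.0833 after adjustment over the 7 measures. Without liver replicate 3 it was 0.392 percentage points (exact p = 0.107). With every library scaled to the 707949 distant reads of the shallowest one, the expected shares were 6.61 to 7.41% in limb and 7.43, 7.46 and 10.6% in liver.

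The number of fragments reached in the whole genome varied widely among the livers. It was 2.00, 2.05 and 1.60% of distant fragments in forelimb, 1.86, 1.54 and 1.72% in hindlimb, and 2.75, 1.64 and 3.79% in liver (exact permutation test, p = 0.0595, adjusted p = 0.139). The difference of the means was 0.930 percentage points. It was 0.398 without liver replicate 3 (exact p = 0.25), 1.47 without liver replicate 2 (exact p = 0.0357) and 0.517 with every library scaled to the same number of distant reads (exact p = 0.0952). With neighbouring fragments of equal count taken once it was 0.596 (exact p = 0.0714). Liver replicate 2 had fewer fragments with reads than 4 of the 6 limb libraries although it was deeper than all of them.

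**Figure D1:**
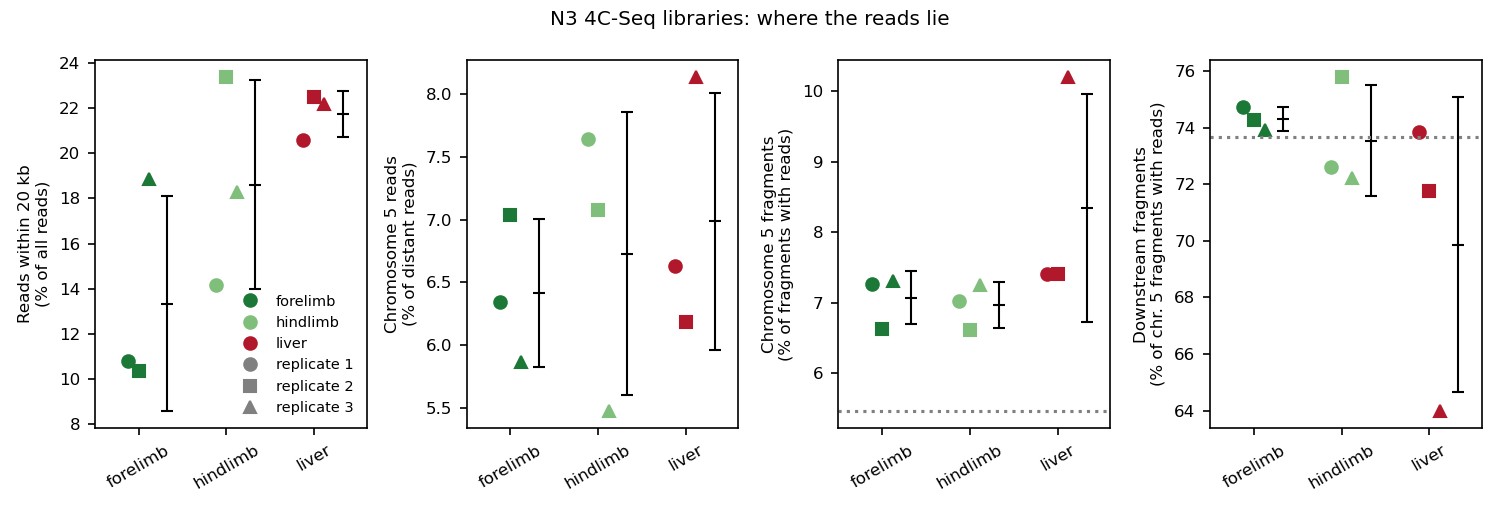
Percent of reads or fragments in each of the 9 N3 libraries, by tissue (colour) and replicate (symbol); black bars are the mean and SD of 3 replicates, dotted lines the share of all distant fragments of the genome on chromosome 5 (5.46%) and of distant chromosome 5 fragments downstream (73.7%). Liver replicate 3 lies alone at 10.21% in the chromosome 5 share of fragments and at 64.0% in the downstream share.

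Upstream is used here for lower coordinates on chromosome 5, the side of the N1 and N2 viewpoints, and downstream for higher coordinates, the side of *Rab28*, *Nkx3-2* and *Bod1l*. The primer points downstream. Downstream of the viewpoint lie 73.7% of the distant fragments of chromosome 5. The downstream side held 65.9 to 79.6% of distant chromosome 5 reads in limb and 73.8, 68.5 and 79.0% in liver, with means of 73.8% in both (exact permutation test, p = 0.988, adjusted p = 0.988). Without the fragments that had reads in all 9 libraries the means were 77.6% in limb and 68.6% in liver (exact permutation test, p = 0.0833). By fragments with reads it held 72.2 to 75.8% in limb and 73.9, 71.8 and 64.0% in liver. That is 73.9% ± 1.34 (SD, n = 6) against 69.9% ± 5.21 (SD, n = 3), with p = 0.0476 in the exact permutation test and 0.139 after adjustment. Without liver replicate 3 the difference was -1.12 percentage points where it had been -4.07 (exact p = 0.321). The unadjusted p also rose above 0.05 when forelimb replicate 1, 2 or 3, hindlimb replicate 2 or liver replicate 2 was left out.

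Within 500 kb, captures on both sides were denser than on other chromosomes in every library of both tissues. Density is given as the percent of fragments in a band of distance with at least 1 read, divided by the same percent on all other chromosomes of that library, which reduces the effect of depth. From 100 to 500 kb upstream it was 5.19 to 13.4 times the level of other chromosomes in limb, and 8.31, 7.39 and 16.8 times in liver. On the same stretch downstream, which holds *Rab28*, *Nkx3-2* and *Bod1l*, it was 2.17 to 8.25 times in limb and 5.17, 4.55 and 14.7 times in liver. In both bands only liver replicate 3 lay above all the limb libraries, and the other livers lay within the limb range. The upstream band also holds the N1 and N2 viewpoints, whose primers were in the same pool. It had 12 to 34 fragments with reads in limb and 34, 18 and 92 in liver. Of these, 5 to 7 in limb and 9, 6 and 9 in liver lay within 20 kb of N2. Within 20 kb of N1 lay 0 to 6 in limb and 2, 1 and 8 in liver. Products of the N1 and N2 primers cannot be told apart from ligations to N3 at these places. Between 20 and 100 kb the ratios upstream were 2.73 to 12.7 in limb and 11.1, 10.9 and 13.9 in liver. Downstream they were 5.06 to 18.3 in limb and 4.80 to 12.8 in liver, so the tissues overlapped on both sides.

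Past 500 kb the ratios were lower than from 100 to 500 kb, and liver replicate 3 separated from the other libraries. The exception was hindlimb replicate 1 downstream, with 2.17 from 100 to 500 kb and 2.31 from 500 kb to 2 Mb. From 500 kb to 2 Mb upstream the ratio was 0.685 to 2.28 in limb, 1.55 and 1.08 in liver replicates 1 and 2, and 6.81 in liver replicate 3. Downstream the values for that band were 1.81 to 2.72, 2.79, 2.40 and 6.02. From 2 to 10 Mb liver replicate 3 still had 3.54 times the level of other chromosomes upstream and 3.38 times downstream, where limb had 1.65 to 2.17 and 1.23 to 1.54. From 10 to 40 Mb downstream the ratios were 0.994 to 1.19 in limb and 1.24, 1.19 and 1.855 in liver. Beyond 40 Mb downstream the tissues overlapped, with ratios of 1.19 to 1.40 in limb and 1.36, 1.40 and 1.28 in liver. In limb the ratios thus did not fall steadily with distance. A band of few fragments rests on few captures, since the 26 fragments between 20 and 100 kb downstream gave 2 to 9 fragments with reads in limb, and 7, 2 and 12 in liver.

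**Figure D2:**
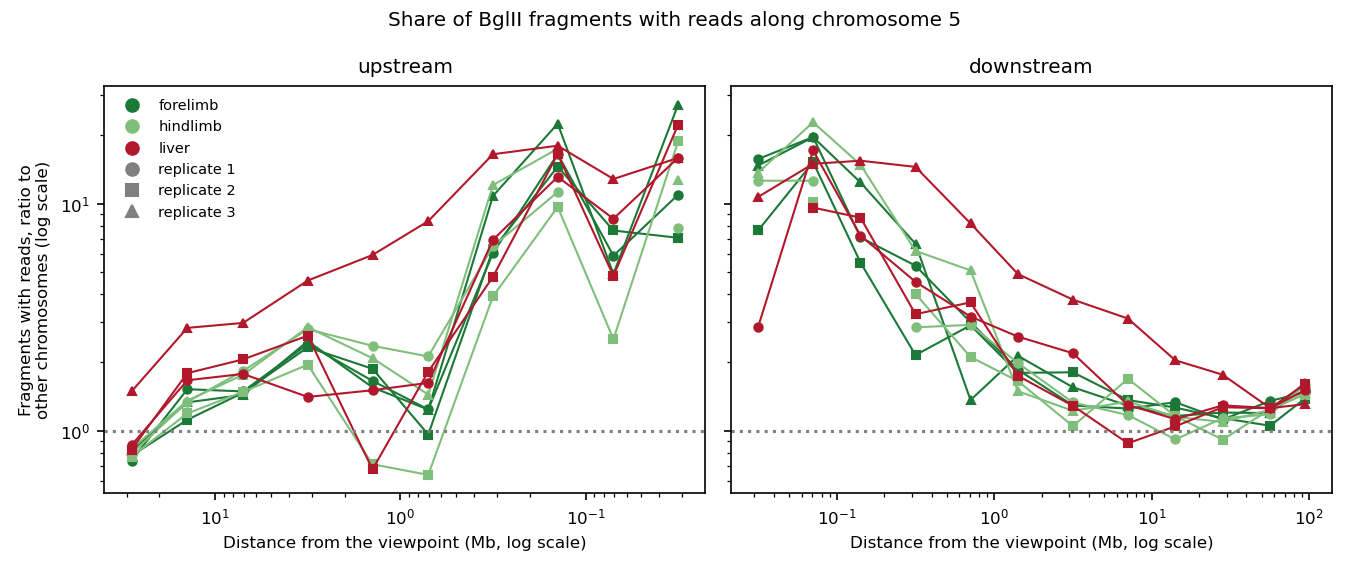
Percent of fragments with reads in bins of distance, divided by that on the other chromosomes of the same library (log axes, dotted line at 1), against distance from the viewpoint in Mb, one line per library; bins without any fragment with reads are left out. Ratios are lower far from the viewpoint than near it, and liver replicate 3 stays higher for longer. Over the whole band from 500 kb to 2 Mb upstream, drawn here in finer bins, its ratio is 6.81 where limb has 0.685 to 2.28.

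The distribution over the 11 bands of chromosome 5 was then compared as shares within the chromosome. No band passed the exact permutation test after adjustment, either by reads (0 of 11, 0% of bands called, 0 with an unadjusted p under 0.05) or by fragments with reads (0 of 11, 0%, 1 with an unadjusted p under 0.05). A lone band at the smallest p that 84 arrangements allow has an adjusted p of 0.131 and cannot pass. The 1 band was 10 to 40 Mb upstream, where the groups did not overlap. It held 14.6, 14.2 and 14.2% of the chromosome 5 fragments with reads in forelimb, 14.7, 14.6 and 14.6% in hindlimb, and 16.1, 16.4 and 19.4% in liver (14.47% ± 0.214, n = 6, against 17.3% ± 1.84, SD, n = 3; exact permutation p = 0.0119, adjusted p = 0.131). The limb libraries lay close together, and without liver replicate 3 liver was still higher by 1.80 percentage points (exact p = 0.0357). This band holds 19.5% of the distant fragments of the chromosome, which is above its share of captures in each of the 9 libraries. By reads it held 9.01% ± 1.87 (SD, n = 6) in limb and 10.03% ± 3.32 (SD, n = 3) in liver (exact permutation p = 0.607, adjusted p = 0.742).

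The shares of whole chromosomes were compared in the same way. No chromosome passed the adjusted test by reads (0 of 21, 0%, 1 with an unadjusted p under 0.05) or by fragments (0 of 21, 0%, 3 with an unadjusted p under 0.05). With 21 tests a lone chromosome at the smallest p cannot pass either. The 3 were chromosomes 5, 11 and 18, and in each the groups did not overlap. Chromosome 11 held 5.32, 5.34 and 5.10% of fragments with reads in forelimb, 5.20, 5.31 and 5.21% in hindlimb, and 5.80, 5.59 and 5.74% in liver. The difference was 0.463 percentage points (5.25% ± 0.0919, n = 6, against 5.71% ± 0.109, SD, n = 3; exact permutation p = 0.0119, adjusted p = 0.125). Unlike chromosome 5, it did not rest on liver replicate 3: leaving out any 1 of the 9 libraries gave 0.419 to 0.523 percentage points. Chromosome 18 held 3.64% ± 0.139 (SD, n = 6) in limb and 3.37% ± 0.0808 (SD, n = 3) in liver (exact permutation p = 0.0238, adjusted p = 0.167). Its unadjusted p rose above 0.05 without forelimb replicate 1 or 3 or any 1 liver.

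The same shares in the libraries of the other viewpoints were computed for these 3 chromosomes. For chromosome 11 liver differed from limb by -0.587 percentage points with N1 and 0.0341 with N2 (exact permutation p = 0.179 and 0.940; adjusted over the 6 comparisons, 0.268 and 0.940). For chromosome 18 the differences were -1.03 and -0.455 percentage points (exact permutation p = 0.0833 and 0.0595, adjusted p = 0.190 for both). For chromosome 5 the differences were 3.61 and 3.98 percentage points (exact permutation p = 0.452 and 0.0952, adjusted p = 0.543 and 0.190). In both viewpoints only liver replicate 3 lay well above limb. With N1 the livers had 12.5, 9.57 and 27.9% against 10.04 to 14.8% in limb, so liver replicate 2 was below every limb library. With N2 they had 9.99, 7.86 and 19.1% against 7.46 to 9.92%. The chromosome 5 differences of N1 and N2 without liver replicate 3 were not tested. The N1 libraries had as few as 385 distant fragments with reads and the N2 libraries as few as 2968.

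By reads, chromosome 16 stood highest in liver, with 10.98% ± 4.56 (SD, n = 3) against 6.83% ± 1.27 (SD, n = 6; exact permutation p = 0.0357, adjusted p = 0.583), and the groups overlapped. The unadjusted p rose above 0.05 when any 1 library other than hindlimb replicate 3 was left out, and without liver replicate 3 the difference of 4.15 percentage points was 1.53. The single *Hunk* fragment described below had means of 7.97% in liver and 3.55% in limb. Without the fragments that had reads in all 9 libraries the difference was -0.207 percentage points. X held 3.12% ± 0.138 (SD, n = 6) of fragments with reads in limb and 2.91% ± 0.144 (SD, n = 3) in liver while it has 6.55% of the fragments, and Y held 0.0611 and 0.0643% with 3.92% of the fragments. Alignments with a MAPQ below 30 had been removed, and the part of that step in these low values was not tested.

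**Figure D3:**
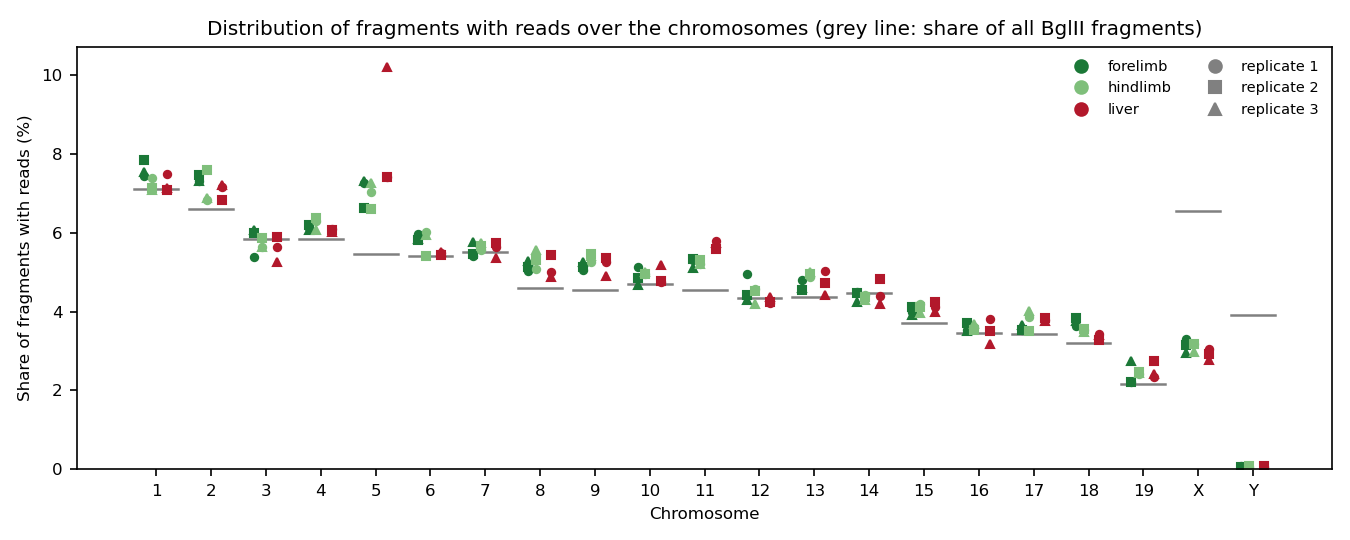
Percent of all distant fragments with reads on each chromosome, per library, by tissue (colour) and replicate (symbol); grey lines give the percent of all distant BglII fragments on that chromosome. Liver replicate 3 stands alone on chromosome 5 (10.21%), and on chromosome 11 the 3 liver points (5.59 to 5.80%) lie above the 6 limb points (5.10 to 5.34%).

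Windows of 1 Mb were used to find where along the genome the tissues differed. By reads, no window passed the edgeR quasi-likelihood test (0 of 2510, 0% called; 93 with an unadjusted p under 0.05), while DESeq2 called 2 of the same windows (0.0797%), 1 in each direction (0.0398%). By number of fragments with reads, edgeR called 5 of 750 windows (0.667% of those tested), all higher in liver, and DESeq2 called 0. All 5 lie on chromosome 5. The filter on low counts kept 750 of 2586 windows. A window could pass it through the 3 liver libraries alone, which favours windows higher in liver. Without the filter edgeR called 4 of 2586 windows, all higher in liver and 3 of them on chromosome 5. Without TMM scaling it called 7 of 750, of which 6 were higher and 1 was lower in liver. Of the 77 windows of chromosome 5 that could be tested, 72.7% were higher in liver, against 51.1% of all 750, and 19 had an unadjusted p under 0.05 of 67 in all. Chromosomes 10 and 19 had similar shares of windows higher in liver, 74.2% of 31 and 72.2% of 18, with 2 and 3 windows at an unadjusted p under 0.05. Without liver replicate 3, 41 of the 80 tested windows of chromosome 5 were higher in liver, against 424 of all 845. In that setting 9 windows of chromosome 5 had an unadjusted edgeR p under 0.05, of 56 in all. With all 9 libraries and no filter, the windows higher in liver were 104 of 148 on chromosome 5 and 1265 of all 2586.

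The window at chr5:27000001-28000000, which holds *Dpp6* and *Paxip1*, had 8, 11 and 4 fragments with reads in forelimb, 8, 6 and 9 in hindlimb, and 20, 13 and 62 in liver. Every liver library was above every limb library. The fitted change was 1.42 ± 0.28 (SE) on the log2 scale, with an adjusted p of 0.00297 in edgeR. The next window, chr5:28000001-29000000, holds the limb and brain patterning genes *Shh* and *En2*, and had 5 to 9 fragments with reads in limb and 20, 10 and 46 in liver (log2 change 1.18 ± 0.27, edgeR adjusted p = 0.0164). None of the fragments within 25 kb of the 5′ end of *Shh* had a read in any of the 9 libraries. At chr5:34000001-35000000, with *Htt*, *Sh3bp2* and 15 more protein-coding genes, limb had 2 to 9 and liver 15, 16 and 29 (log2 change 1.32 ± 0.32, edgeR adjusted p = 0.0208).

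The other 2 windows fell outside the rule that named 3 per direction and were chosen after their values were seen. At chr5:44000001-45000000, with *Prom1*, *Tapt1* and *Ldb2*, limb had 4 to 15 fragments with reads and liver 23, 7 and 56, and the groups overlapped (edgeR adjusted p = 0.0457). At chr5:77000001-78000000, with *Rest* and *Igfbp7*, they were 5 to 8 and 19, 9 and 38 (edgeR adjusted p = 0.0212). Without liver replicate 3 edgeR called 0 windows, as it did without hindlimb replicate 2. Without liver replicate 3, the log2 changes of the windows at 27 and 28 Mb were 0.78 and 0.70, with adjusted p of 0.674 and 0.740, and the window at 34 Mb did not pass the filter on low counts. Without hindlimb replicate 2 the 27 Mb window kept a log2 change of 1.38 (edgeR adjusted p = 0.0631). Taking neighbouring fragments of equal count once also left 0 windows. Leaving out forelimb replicate 1, 2 or 3 gave 1, 3 and 3 windows, leaving out hindlimb replicate 1 gave 2, and leaving out liver replicate 2 gave 9.

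Most distant reads lay on a small set of fragments that every library shared. These were 1849 fragments, or 0.195% of the distant fragments of the genome, with reads in all 9 libraries, and they held 81.8, 82.3 and 82.9% of the distant reads in forelimb, 83.1, 85.8 and 87.7% in hindlimb, and 81.5, 87.5 and 87.9% in liver. At the other extreme, 69564 fragments had reads in a single library and held 2.47 to 6.42% of the distant reads. Of the fragments with reads in all 9 libraries, 123 lie on chromosome 5, a share of 6.65% beside the 5.46% of all distant fragments. Reads per recurrent fragment (log2 scale) correlated across the 1849 fragments with a median Pearson's r of 0.69 for the 15 pairs of limb libraries, 0.73 for the 18 pairs of a limb and a liver library and 0.73 for the 3 pairs of livers. These are correlations across fragments that share the viewpoint, the primer and fragment length, and fragments are not independent replicates.

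The overlap of captured fragments had similar medians across tissues and within them. A median of 28.2% of the fragments with reads of a limb library had reads in another limb library (range over 15 pairs, both directions, 23.0 to 34.1%). The median was 29.7% (15.1 to 37.6%) for the 18 pairs of limb and liver and 25.2% (16.5 to 38.3%) for the 3 pairs of livers. With the recurrent fragments taken out, the medians were 19.4, 20.8 and 19.5%.

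Recurrent fragments often held sequence like the primer. Of all distant fragments on the numbered chromosomes, X and Y, 34 hold at least the last 15 bases of the primer without a difference, and 33 of them had reads in all 9 libraries. At 14 bases 38 of 49 fragments did, at 13 bases 99 of 524, and under 8 bases 857 of 777316. The percent of fragments with reads in a library rose with the length of the match in limb and liver alike, from 1.09 to 1.55% in limb and 1.18 to 3.06% in liver for matches under 8 bases, to 37.4 to 46.6% and 40.8 to 54.8% at 13 bases. The 4088 fragments with a match of 11 bases or more held 19.9 to 37.1% of distant reads in limb and 23.6, 25.9 and 34.5% in liver. Those with a match under 8 bases held 42.0 to 49.5% in limb and 47.8, 46.1 and 43.8% in liver. Fragments with reads had a median length of 4.03 to 4.57 kb in limb and 3.67, 4.25 and 3.61 kb in liver, against 1.85 kb for all fragments. A longer fragment has more places for a match, and the part of length in the rise was not tested.

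A match need not be perfect for this relation to appear. The *Slc39a11* and *Drd2* stretches printed above were among the highest fragments although the unbroken match of these stretches ends after 4 bases, so a further count, chosen after these sequences were seen, allowed a mismatch anywhere in the last 14 bases. Among the 3525 fragments with exactly 1 mismatch, 29.4 to 34.9% had reads in a limb library and 34.3, 32.1 and 40.9% in a liver library. Among the 944035 fragments with more mismatches the values were 1.43 to 1.93% and 2.63, 1.52 and 3.65%. Fragments with 0 or 1 mismatch make up 35.9% of the recurrent fragments, and the remaining 64.1% have more mismatches. Among all distant fragments on the numbered chromosomes, X and Y, 0.00876% have 0 mismatches and 0.372% have 1. Whether these reads arose by priming within the fragment or by ligation to the viewpoint was not tested, since the files give no read positions within fragments.

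**Figure D4:**
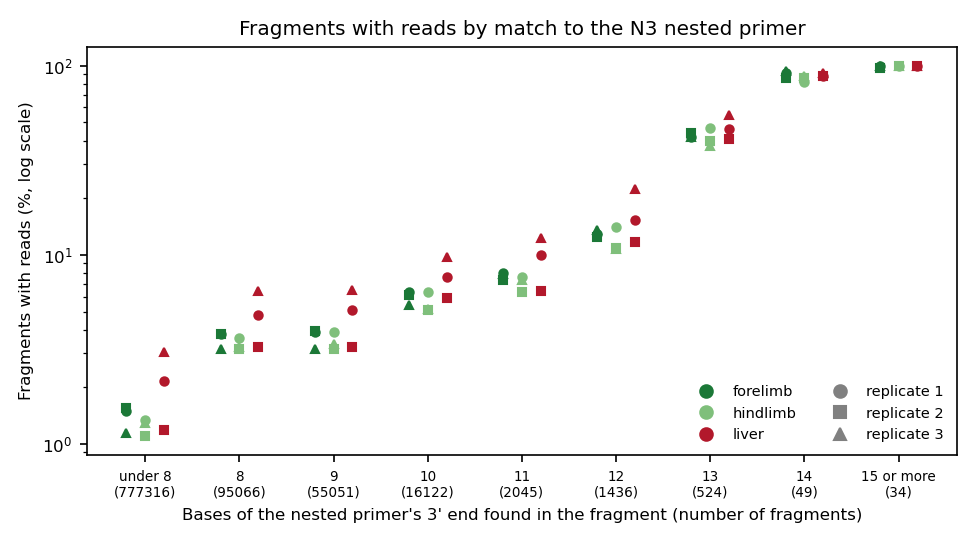
Percent of distant fragments with reads in each library (log axis) against the number of bases of the 3′ end of the nested primer found without a difference on either strand, with the number of fragments in each class. The percentages rise from 1.09 to 3.06% under 8 bases to 97.1 to 100% at 15 bases or more, in liver and limb alike.

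Outside chromosome 5, the 2 fragments with the highest mean share in limb were also the 2 highest in liver. The fragment of 15155 bases in *Hunk*, a kinase gene, at chr16:90482356-90497510 held 2.26, 2.23 and 3.23% of distant reads in forelimb, 2.42, 4.32 and 6.84% in hindlimb, and 5.27, 4.90 and 13.7% in liver. A fragment in an intron of the zinc transporter gene *Slc39a11*, chr11:113502991-113508107, held 2.18 to 5.33% in limb and 5.01, 5.89 and 3.53% in liver. A fragment with an exon of *Ap3b1*, which encodes an adaptor complex subunit, at chr13:94404314-94411140 held 0.486 to 3.86% in 5 limb libraries, 13.3% in hindlimb replicate 3, and 1.77, 1.26 and 2.41% in liver. An intronic fragment of the dopamine receptor gene *Drd2*, chr9:49389217-49392855, held 1.22 to 3.07% in limb and 1.73, 2.71 and 1.78% in liver. For each of these 4 fragments limb and liver values overlapped.

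Among the highest fragments of chromosome 5 was one far from N3, 92.7 Mb downstream. This fragment at chr5:134221541-134223108, with exons of *Gtf2ird2* and *Ncf1*, held 0.587 to 1.31% of distant reads in limb and 1.25, 1.04 and 1.60% in liver. Fragments near *Oas1c* (chr5:120818330-120825089) and *Cib4* (chr5:30557731-30567341), outside protein-coding genes, held 0.149 to 0.583% and 0.218 to 0.402% in limb and 0.254 to 0.353% and 0.240 to 0.571% in liver. The 10 highest fragments of each library together held 16.7 to 22.0% of distant reads in 5 limb libraries, 36.4% in hindlimb replicate 3, and 24.9, 26.0 and 33.1% in liver (exact permutation test, p = 0.238, adjusted p = 0.333). The difference of 6.15 percentage points was 9.07 without hindlimb replicate 3 (exact p = 0.0179) and 3.59 without liver replicate 3 (exact p = 0.571). It was -0.458 with counts capped at their 99th percentile and -0.695 without the fragments that had reads in all 9 libraries.

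Close to N3, the fragments with reads in every library lay mainly at the neighbouring viewpoint. Within 1 Mb but outside 20 kb, 6 fragments had reads in all 9 libraries. Of these 4 follow each other at chr5:41383902-41406857, around the N2 viewpoint. Together with other fragments within 20 kb of N2 they held 18 to 177 reads in limb and 149, 29 and 336 in liver. That is 0.00138 to 0.0141% of the reads of an N3 library, while the N2 libraries themselves had 0.906 to 19.1% of their reads there. The N1 viewpoint region, 20 kb to each side, held 91, 12 and 11 reads in forelimb, 0, 0 and 7 in hindlimb, and 87, 1 and 100 in liver. As all viewpoints were amplified from 1 pool of primers, a ligation between N3 and N2 and a product of the N2 primer cannot be told apart at that place. The other 2 recurrent fragments were at 21.6 kb upstream, with 39 to 663 reads in limb and 641, 516 and 897 in liver, and at 75.1 kb downstream, 11.6 kb from *Rab28*, with 39 to 356 and 166, 114 and 165 reads.

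Around the promoter of *Nkx3-2*, captures were few and fewer in limb than in liver replicate 3. The gene lies at chr5:41761483-41764501 on the minus strand, 229 kb downstream of N3. Of the 21 fragments within 25 kb of its 5′ end, 3, 3 and 4 had reads in forelimb, 4, 2 and 4 in hindlimb, and 5, 5 and 15 in liver. The reads on them were 3, 43 and 163 in forelimb, 86, 6 and 349 in hindlimb, and 130, 130 and 439 in liver. The read numbers overlapped between the tissues, whereas by fragments every liver library was above every limb library. These counts were not scaled to depth, although liver was sequenced more deeply. Some neighbouring fragments had equal counts. In liver replicate 1 the fragments at 226.4 and 229.0 kb had 59 reads each, and in liver replicate 2 those at 208.4 and 210.8 kb had 29 each. With such neighbours taken once, liver replicates 1 and 2 no longer lay above every limb library. On the 3 fragments that cover the gene body itself all 6 limb libraries had 0 reads, and the livers had 118, 0 and 140. The 118 reads of liver replicate 1 were the 59 on each of the neighbouring fragments named above. A count of 0 allows a share of up to 0.000190 to 0.000424% of the distant reads of a limb library, a limit that covers counting error only, since reads carried no molecular identifiers and copies of 1 ligation product count as many.

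The neighbouring genes were counted in the same way. *Rab28*, a small GTPase gene, had 2, 3 and 1 of 16 fragments with reads in forelimb, 0, 0 and 5 in hindlimb, and 3, 2 and 9 in liver. *Bod1l*, whose product protects replication forks, had 2, 0 and 2 of 20 fragments in forelimb, 2, 2 and 3 in hindlimb, and 4, 0 and 10 in liver. For both genes the tissues overlapped, and liver replicate 3 was highest. No test was run on single genes.

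**Figure D5:**
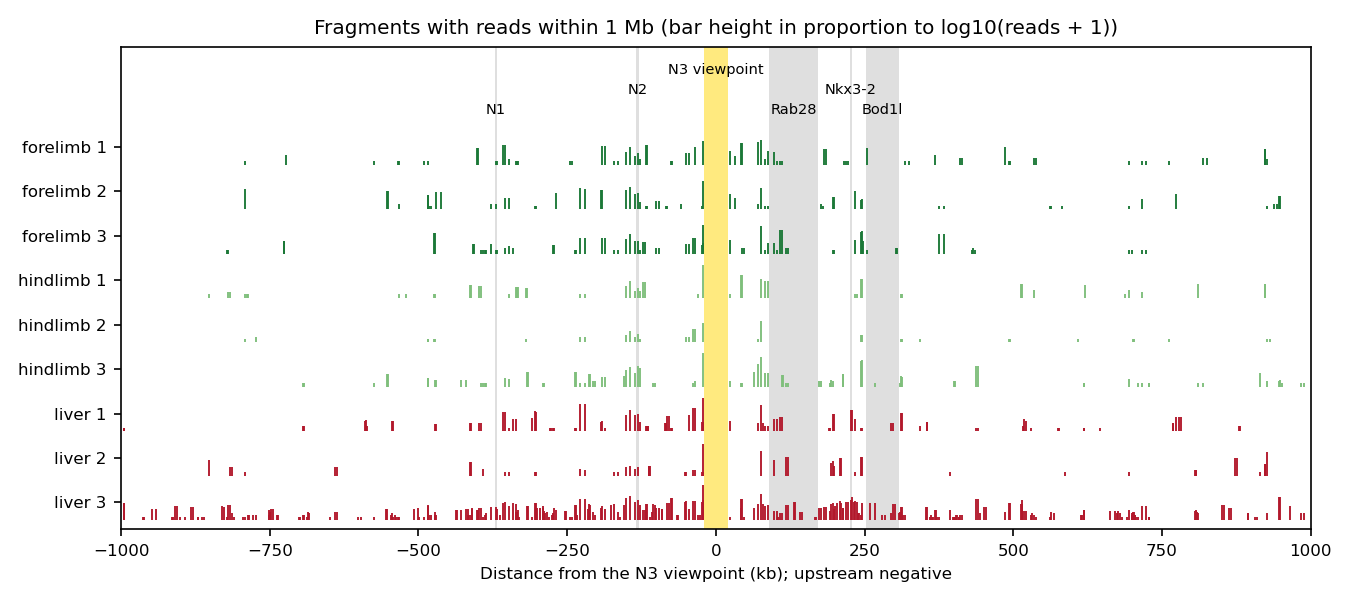
Fragments with reads within 1 Mb of the N3 viewpoint in each library, at their distance in kb (upstream negative), with bar height in proportion to log10 of reads plus 1; the 20 kb beside the viewpoint are left blank (yellow), and grey bands mark the N1 and N2 viewpoints and the genes *Rab28*, *Nkx3-2* and *Bod1l*. Bars at N2 occur in all 9 libraries, and liver replicate 3 has the most fragments with reads.

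Gene groups of chromosome 5 were described by the percent of their fragments with reads within 25 kb of each 5′ end, beside 1.84 to 2.55% in limb and 3.43, 2.20 and 5.31% in liver for all 1260 protein-coding genes of the chromosome. The 11 genes of the interval around the locus had 2.08 to 3.65% in limb and 7.81, 1.56 and 15.1% in liver. All 11 had reads in liver replicate 3, 7 in liver replicate 1 and 2 in liver replicate 2, against 3 to 5 in limb. *Hs3st1*, a heparan sulfate sulfotransferase gene 1.78 Mb upstream, was the only one of the 11 with reads in all 9 libraries, on 1 or 2 of 13 fragments in limb and 3, 2 and 4 in liver. *Prom1*, the gene of a membrane protein of stem and photoreceptor cells, had reads in 1 limb library and in liver replicate 3 alone among livers.

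Limb and skeleton genes had 2.11 to 6.75% of their fragments with reads in limb and 2.95, 5.91 and 9.28% in liver, and 3 to 6 of the 14 genes had a read in a limb library, 5, 6 and 6 in liver. The pair *Evc* and *Evc2*, neighbours 4.20 Mb upstream that share a promoter region and act in hedgehog signalling of the growth plate, had reads on 4, 2 and 2 of 17 fragments in forelimb, 7, 0 and 3 in hindlimb, and 2, 4 and 7 in liver. *Msx1*, a limb bud transcription factor gene 3.71 Mb upstream, had 0 to 3 of 12 fragments with reads in limb and 1, 1 and 3 in liver. At *Shh* and at *Tbx3*, a limb patterning gene, there was no read in any library.

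Liver genes had 1.71 to 3.85% of their fragments with reads in limb and 1.28, 2.56 and 3.42% in liver, and 4 to 6 of 14 genes had a read in a limb library against 2, 3 and 6 in liver. Around *Alb*, the albumin gene, 1 of 16 fragments had a read in hindlimb replicate 2 and in liver replicate 3 and none elsewhere. *Afp*, the fetal serum protein gene beside it, had reads in 4 limb libraries and in liver replicate 3. At *Cyp3a13*, a cytochrome P450 gene 96.4 Mb downstream, reads were present in all 9 libraries, 1 to 168 in limb and 28, 13 and 40 in liver. *Hgfac*, which encodes the activator of hepatocyte growth factor, had 0, 1 and 0 reads in forelimb, 0, 0 and 53 in hindlimb and 102, 4 and 0 in liver, so the livers differed among themselves as much as from limb.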

How the data were processed

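The 9 N3 libraries were analysed, and the N1 and N2 libraries where named. Per the labels, the methods and the submitters' processing notes, adapters were cut off by the authors (cutadapt 1.10), alignment to mm10 used BWA 0.7.10-r789, blacklisted and multiply aligned reads (MAPQ under 30) were dropped, and the rest were counted per *BglII* fragment. The deposited counts are whole reads per fragment, not normalized, with replicates apart. The deposited signal column is the count per kb and was not used. Chromosome lengths equal those of GRCm38.p6, so its sequence and GENCODE vM21 were used.

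Fragments were placed by midpoint. The viewpoint is the middle of the nested primer in the study's primer sheet. Shares are percent per library. Limb and liver were compared by exact permutation tests over libraries (two-sided, 84 arrangements), with Benjamini-Hochberg adjustment within each family and a threshold of 0.05. For windows of 1 Mb the quasi-likelihood test of edgeR 4.0.16 was used in R 4.3.3, after TMM scaling and filterByExpr, and DESeq2 1.42.0 was run beside it. Shares were computed with Python 3.11.15, numpy 2.4.6 and pandas 2.3.3. The tests were tested on simulated data.

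Named items are all chromosomes and bands, at most 3 windows per direction, the 3 fragments with the highest mean share per tissue on chromosome 5 and elsewhere, and genes of 4 lists. One item is not reported here. The members and lists were chosen with earlier results of these data known. Matches to the primer were exact runs of at least 8 bases from its 3′ end on either strand. Alternatives were each library left out, the replicate number as a block, neighbouring equal counts taken once, 100 kb left out, a log2 scale (offset 0.01), counts capped at the 99th percentile, at least 3 reads per fragment, equal depth, finer bands, no filter, no TMM and 5-Mb windows. Leaving out fragments with reads in all 9 libraries, or with a primer match of 11 bases or more, was added after seeing the data.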

Additional observations from a re-analysis of the deposited data

Results flagged for a closer look

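Among 71 measures compared over the 6 limb libraries, 5 had a limb library far from the other 5, where chance flags about 1 in 20. Hindlimb replicate 3 was the library in 4 of them. It had 36.4% of distant reads on its 10 highest fragments, where the others had 16.7 to 22.0%. It had 17.3% of distant reads on chromosome 13, where the others had 4.46 to 8.72%, and 13.3% lay on the single *Ap3b1* fragment that matches 15 bases of the primer. Its shares on chromosomes 15 and 18 were low, at 2.40% and 1.1% against 3.22 to 3.68% and 1.79 to 2.13%. Hindlimb replicate 2, the shallowest library, had 5.41% of its fragments with reads on chromosome 6, where the others had 5.81 to 6.01%.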

How the results depend on the processing

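Calls for the library-wide measures, single chromosomes and bands are read here from an unadjusted exact p under 0.05. None of these passed after adjustment. Counts of chromosomes and of bands that passed were 0 in every setting tried, which says nothing about stability, since 1 band or chromosome alone cannot pass in this design. For the difference in the share within 20 kb, leaving out 1 library gave 4.66 to 7.26 percentage points. Corresponding ranges were -0.163 to 0.815 for the chromosome 5 share of reads, 0.398 to 1.47 for fragments with reads in the genome, 0.392 to 1.79 for the chromosome 5 share of fragments, -2.65 to 2.59 for the downstream share of reads, -6.06 to -1.12 for the downstream share of fragments, and 3.59 to 9.07 for the 10 highest fragments. The difference in the chromosome 5 share of reads, 0.414, was 0.828 with counts capped, 1.51 without the fragments in all 9 libraries and 1.21 without those with a primer match. The downstream share of reads moved most, to -9.00, without the fragments in all 9 libraries. It changed sign with neighbouring equal counts taken once (0.766), with 100 kb left out (0.262) and without fragments with a primer match (0.580). The downstream share of fragments lost its call with at least 3 reads per fragment (-6.60), without the fragments in all 9 libraries (-4.21) and without those with a primer match (-3.95). The share on the 10 highest fragments turned to -0.458 with counts capped and to -0.695 without the fragments in all 9 libraries. The chromosome 16 share of reads turned to -0.161, -0.207 and -0.114 with the cap, without the fragments in all 9 libraries and without those with a primer match. The differences for chromosome 11 and for the band 10 to 40 Mb upstream kept direction and an unadjusted p under 0.05 in all 16 alternatives each. Neither passed the adjusted test, and both were looked at because their unadjusted p was under 0.05. The chromosome 5 share of fragments kept direction and unadjusted call in 16 of 17, and lost its call without liver replicate 3.

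Windows called by reads were 2 with DESeq2 and 0 in all other settings. By fragments, leaving out 1 library gave 0 to 9. The count was 0 with DESeq2 and with neighbouring equal counts taken once. It was 1 with 5-Mb windows, with at least 3 reads per fragment and without the fragments in all 9 libraries, and 3 without those with a primer match. The cause was not tested.

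With the replicate number as a block (exact permutation test, 27 arrangements), the downstream share of fragments kept its difference of -4.07 at p = 0.0741, and chromosome 18 also lost its call (p = 0.0741). By fragments edgeR with the block called 4 windows. Deviations of same-numbered libraries correlated by -0.0309 to 0.0520 over 750 windows and differently numbered ones by -0.0517 to 0.0606. By reads over 2510 windows the ranges were -0.0288 to 0.158 and -0.125 to 0.0949, and the 3 pairs of replicate 3 libraries (0.104 to 0.158) were above all others. As not every same-numbered pair was over 0.1, the numbers were not taken to pair the libraries. The smallest exact p, when 1 of 7 measures alone reaches it, is 0.0833 after adjustment. Depth limits what is seen: single reads made up 28.8 to 47.8% of the fragments with reads. The same count as the fragment before was found on 8.79 to 17.6% of them in limb and 23.0, 14.9 and 23.3% in liver.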
